A study of Mus musculus with 4 samples.

Results

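A set of 10 genes of the oxygen-sensing pathway was followed across 4 cultures of mouse dendritic cells. They were Hif1a, Egln1, Egln3, Bnip3, Bnip3l, Ero1a, Ankrd37, Ddit4, Ndrg1 and Adm. All 24 probe sets that the array annotation assigns to these 10 symbols were taken, out of 45037 non-control probe sets and 18193 genes with a probe set of their own. The genes were chosen by their signal ratios between these same arrays, so their values are given as a description and no test was made on them. Of the 10, 9 had a probe set of their own, and all 9 exceeded the signal floor (defined below) on at least 1 array. The 3 probe sets of Bnip3l are also annotated to its pseudogene Bnip3l-ps, so their signals are given for the pair and kept out of gene counts.

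The dendritic cells were grown from bone marrow of male C57BL/6 mice aged 6 to 8 weeks, for 7 days in medium with GM-CSF at 500 U/ml, a cytokine under which marrow progenitors become dendritic cells (BMDC). The control BMDC received no treatment with 1D8, a mouse ovarian surface epithelial cell line. The live coculture held BMDC with live 1D8 cells at 1 tumour cell to 5 BMDC. The irradiated coculture held BMDC, at the same ratio, with 1D8 cells irradiated with 50 Gy. The last group was BMDC given 25% (v/v) supernatant of 1D8 cells, called conditioned medium here. All 4 samples, the control included, were sorted with an antibody to CD80, a costimulatory surface protein. Each condition had 1 biological sample on 1 array, so no value has an error and no p-value is given. The labels used here do not give the length of the coculture, the number of mice or the oxygen level.

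Cells read oxygen through a transcription factor that they make and destroy continuously. Hydroxylases of the EGLN family, which need oxygen, mark the alpha subunit of hypoxia-inducible factor (HIF), and the VHL ubiquitin ligase then directs it to the proteasome. When oxygen is short, or when inflammatory signals raise Hif1a transcription in myeloid cells, the alpha subunit accumulates, pairs with ARNT and switches on genes for glycolysis, mitophagy, oxidative protein folding and restraint of growth. The genes followed here encode the sensor itself and stress proteins of this output.

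The factor binds a short core with the letters ACGTG or GCGTG. RefSeq windows of the 250 bases upstream of a gene start (assembly GRCm38.p6) were held for 8 of the 10 genes, all but Bnip3l and Ndrg1. ACGTG, searched on both strands, was in 7 of these 8 windows, against 16.6% of all 32851 windows and 21.1% of the 12837 windows of genes above the floor on at least 1 array. GCGTG was in 6 of the 8, against 42.2% of the windows of genes above the floor. The member windows had a median GC content of 68.8%, against 59.2% for genes above the floor, and the part of this difference in base composition in the counts was not tested. The genes were also grouped as HIF-induced, so a high share of these cores is partly built into the list. The 7 windows include those of Hif1a and Ankrd37, whose RefSeq genes begin further upstream than the start site used. Only the Adm window had no ACGTG. It held GCGTG on the opposite strand, 90 and 54 bases upstream. The longer palindrome CACGTG, which holds ACGTG on both strands and is also the binding site of other factors, was in the windows of Hif1a and Bnip3, against 8.09% of the windows of genes above the floor.

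The stretches around ACGTG are shown for the 5 genes whose RefSeq gene does not reach further upstream than the window's start site, because these genes had higher signals in both cocultures and the letters can be compared directly. Each runs 5′ to 3′ on the gene's strand, and capitals mark ACGTG or its reverse complement CACGT. For Hif1a and Ankrd37 the RefSeq gene begins 6543 and 564 bases further upstream than the start site used, so their windows may hold transcribed sequence and are not printed. A match is a description of the letters and not a measured binding site.
Egln1, chr8:124949280-124949360, minus strand, 106 to 26 bases upstream: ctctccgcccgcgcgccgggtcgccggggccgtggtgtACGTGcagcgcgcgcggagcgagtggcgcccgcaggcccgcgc
Egln3, chr12:54204061-54204124, minus strand, 250 to 187 bases upstream: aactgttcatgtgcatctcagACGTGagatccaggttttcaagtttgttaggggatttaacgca
Bnip3, chr7:138909571-138909652, minus strand, 146 to 65 bases upstream: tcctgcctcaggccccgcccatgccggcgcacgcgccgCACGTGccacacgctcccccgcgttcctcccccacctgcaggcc
Ero1a, chr14:45318593-45318673, minus strand, 101 to 21 bases upstream: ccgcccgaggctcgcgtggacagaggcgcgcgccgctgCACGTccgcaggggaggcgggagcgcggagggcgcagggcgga
Ddit4, chr10:59951915-59951995, minus strand, 225 to 145 bases upstream: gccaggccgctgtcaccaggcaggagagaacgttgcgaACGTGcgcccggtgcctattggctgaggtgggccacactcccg
In Bnip3 the 6 capitals are the CACGTG palindrome, with GCGTG on the opposite strand 117 and 99 bases upstream, on either side of it. In Ero1a the capitals lie on the opposite strand, and GCGTG lies on the gene's strand 128 and 88 bases upstream. The Egln3 stretch, 229 bases upstream, held ACGTG alone, with no GCGTG in its window.

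**Figure D1:**
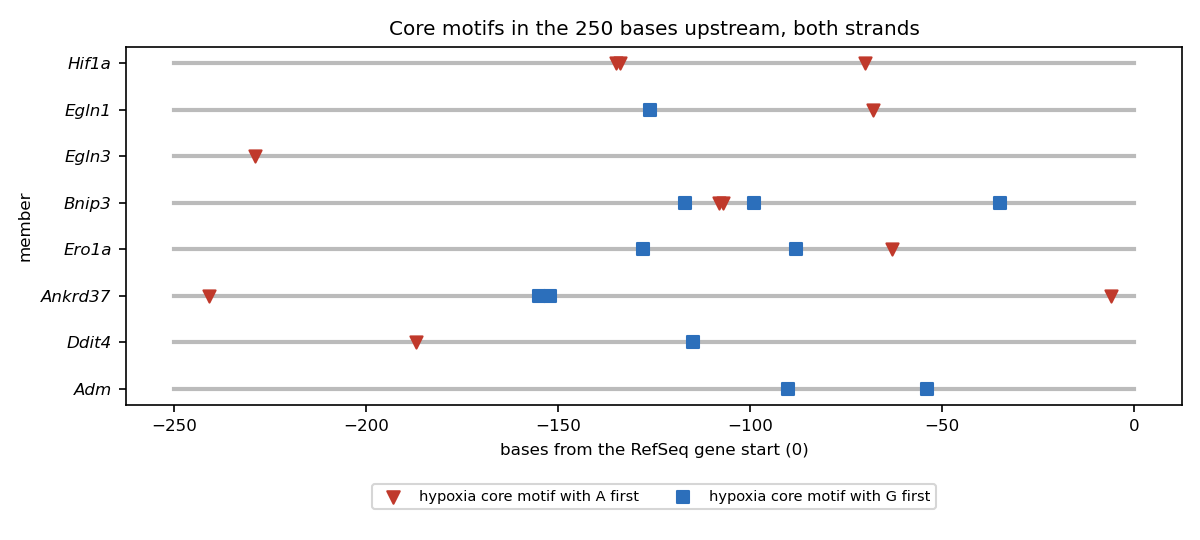
Position of the 2 core motifs in the upstream windows of the 8 genes with a RefSeq window. The horizontal axis is the distance in bases from the gene start, each grey line is 1 window, red triangles mark ACGTG and blue squares GCGTG on either strand. All genes but Adm have at least 1 red triangle, and Adm has blue squares alone.

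The values are MAS5 signals, the linear intensity that Affymetrix software computes per probe set. Before ratios were taken, any signal under 44.3 was raised to that value, which is called the floor. It is the 50th percentile of the signals of all non-control probe sets together. A ratio against a signal at or under the floor is a lower bound, written "at least". A difference was counted when the brightest probe set of a gene showed 2-fold or more. As a yardstick of measurement noise, genes with 2 probe sets above the floor gave an SD of a log2 ratio to the control of 0.47 with live cells, 0.43 with irradiated cells, 0.42 in conditioned medium, and 0.26 between the cocultures. This covers differences between probe sets and not the spread between cultures.

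Some facts of the arrays touch every value below. Median signals were 38.7 (control) and 45.3 to 46.8 (the others), and 58.8% to 62.5% of genes exceeded the floor. The 3′ to 5′ signal ratio of Actb, which rises as RNA degrades, was highest in the control at 1.30 and lay between 1.12 and 1.20 on the treated arrays. Of 17 dendritic cell markers, all exceeded the floor on the control array and 15 or 16 on the treated arrays, Itgax and Cd74 among them, but Flt3 and Zbtb46 stayed between 45.5 and 73.2. Their summed signal was 26458 in the control, 24415 in conditioned medium, 16582 in the live and 17399 in the irradiated coculture. Of 13 macrophage markers 11 exceeded the floor on every array, with a summed signal over the 13 of 39436 to 43624. Marco and Cd163 were under it on all. Among the 13, Cd14 and Msr1 were at least 2-fold higher than in the control with live cells, and Cd14 alone with irradiated cells. Of all genes 3.37% and 3.48% were higher in these comparisons. None of the 13 was 2-fold apart in conditioned medium. Epithelial and mesothelial markers, the nearest markers of 1D8 cells on the array, had a summed signal over 23 genes of 816.5 in the control, 1153 in conditioned medium, 3511 in the live coculture and 4091 in the irradiated coculture. Of these 23, 7 were higher than in the control with live cells, 8 with irradiated cells and, with signals floored, none in conditioned medium, and none was lower. No array of 1D8 cells alone was analysed here. Whether a gene that was higher in a coculture was higher in BMDC or came from tumour cell RNA cannot be told apart, and in such bulk RNA a changed number of cells of a type and a changed amount of RNA per cell cannot be told apart either.

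The oxygen-sensing and stress genes were higher as a group in both cocultures, and a smaller number of them were higher in conditioned medium. With live tumour cells 7 of the 9 genes with a probe set of their own were at least 2-fold higher than in the control and none was lower. On that array 3.37% of all genes, and 5.18% of genes above the floor on either array, were higher, and 2.23% of all genes were lower. With irradiated tumour cells 8 of 9 were higher and none lower, where 3.48% of all genes and 5.38% of those above the floor were higher and 2.25% of all genes lower. In conditioned medium 5 of 9 were higher and none lower, where 2.3% and 3.59% were higher and 1.41% lower. At a 3-fold threshold, or with signals floored at their 75th percentile (155.6), the conditioned medium count was 2 of 9. Counted by probe set, 16, 19 and 10 of the 21 probe sets of these 9 genes were higher with live cells, irradiated cells and conditioned medium, against 4.05%, 3.67% and 2.97% of all non-control probe sets. With the 3 probe sets of Bnip3l, none of which was higher, the counts were the same out of 24. The median log2 ratio of the 9 genes was 2.06 with live cells, 2.81 with irradiated cells and 1.14 in conditioned medium, with a median over all genes of 0.00 in each. These 3 comparisons share the control array, so a low control value raises all 3. Since the genes were picked for such values, the counts describe the group and support nothing further.

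**Figure D2:**
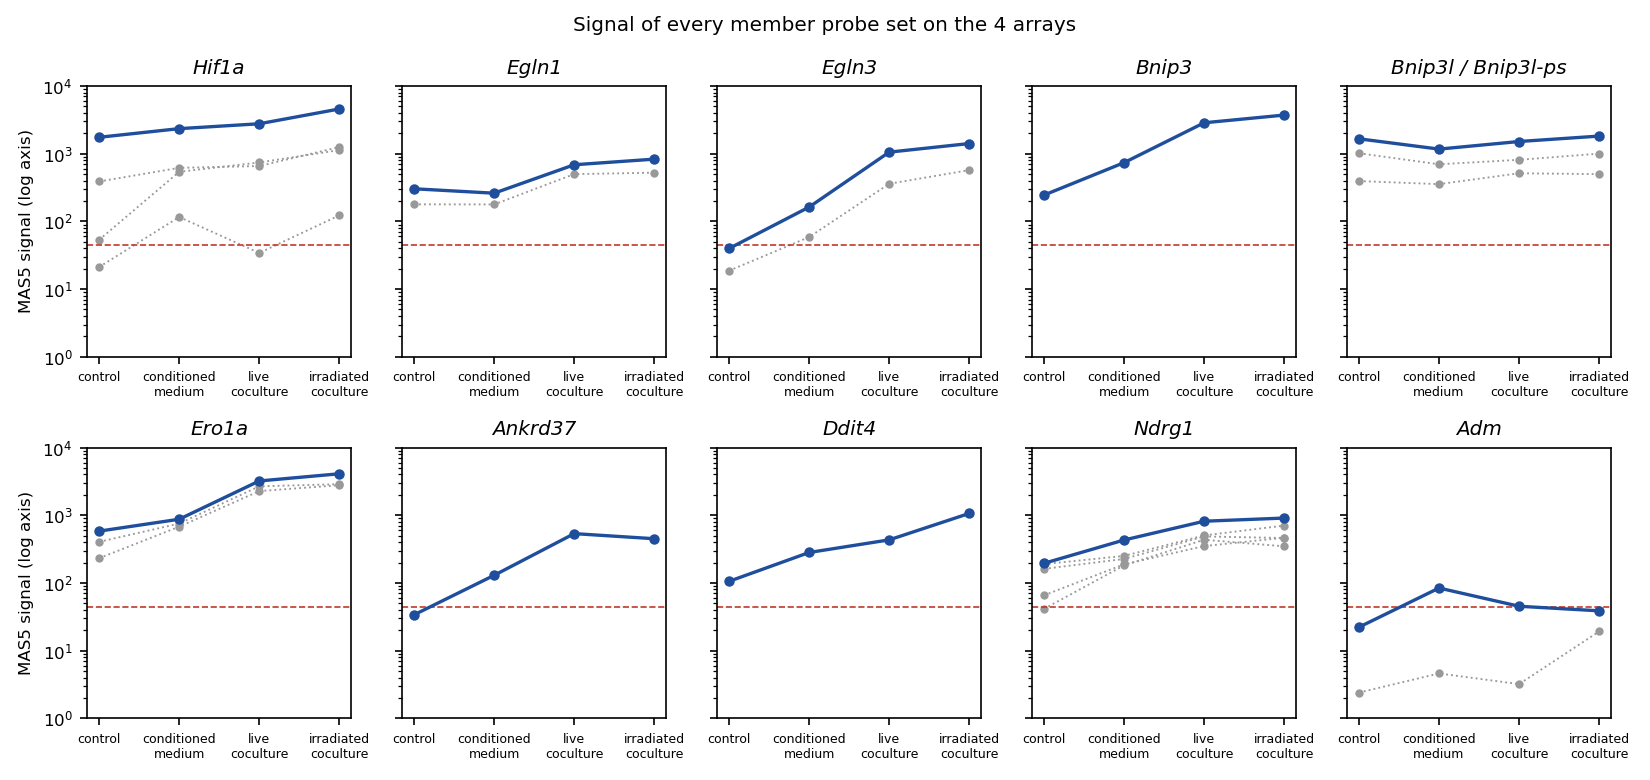
MAS5 signal (vertical log axis) of all 24 probe sets on the 4 arrays, 1 panel per gene. Solid blue marks the brightest probe set of the gene, dotted grey the others, and the dashed red line the floor of 44.3; lines join the values of 1 probe set and stand for no time order. The blue signals of Egln3, Bnip3, Ero1a and Ankrd37 are several-fold above the control in both cocultures, while those of Bnip3l with Bnip3l-ps stay within 1170 to 1821 on every array.

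The 2 hydroxylases among the genes close the feedback loop, since both are themselves induced by HIF and both act against it. Egln3, a hydroxylase strongly induced by hypoxia in many cells, had a signal of 39.8 in the control, 162.8 in conditioned medium, 1055 in the live coculture and 1412 in the irradiated coculture. The control signal was under the floor, so the ratio was at least 23.8-fold with live cells, at least 31.9-fold with irradiated cells and at least 3.67-fold in conditioned medium. The size of these bounds follows the floor. With the floor at the 75th percentile (155.6) the log2 ratios of Egln3 were 2.76 with live and 3.18 with irradiated cells, below those of Bnip3 at 3.55 and 3.93. Its other probe set read 18.7, 58.7, 359.6 and 572.1 in the same order of arrays, with ratios of at least 8.12-fold, 12.9-fold and 1.33-fold for live, irradiated and conditioned medium. Both probe sets placed the cocultures far above the other arrays, but only the brighter passed 2-fold in conditioned medium.

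Egln1, the main oxygen sensor in most tissues, had a signal of 303.3 in the control, 261.1 in conditioned medium, 686.7 in the live coculture and 831.2 in the irradiated coculture. Live and irradiated tumour cells gave 2.26-fold and 2.74-fold higher signals, and conditioned medium a 1.16-fold lower one, which is within the noise yardstick. The other probe set of Egln1 gave 178.8, 178.1, 499.4 and 524.2, so both showed the cocultures high and conditioned medium at the control level. Set against conditioned medium, without the control array, Egln1 was 2.63-fold and Egln3 6.48-fold higher in the live coculture. Egln2, the third family member, which is not a typical HIF target, had its highest signal in the control at 604.6 and read 341.9 to 379.3 elsewhere, under 2-fold apart.

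Hif1a, the oxygen-regulated alpha subunit, was bright on every array, but its 4 probe sets did not give 1 ratio. The brightest read 1748 in the control, 2345 in conditioned medium, 2768 in the live coculture and 4579 in the irradiated coculture, so it was 2.62-fold higher in the irradiated coculture and 1.58-fold and 1.34-fold higher in the live coculture and conditioned medium, under the threshold. The next probe set read 388.7, 618.4, 657.9 and 1255, with ratios of 1.59-fold in conditioned medium, 1.69-fold in the live and 3.23-fold in the irradiated coculture. These placed the irradiated coculture highest and the control lowest.

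Another Hif1a probe set stood apart, with signals of 53.4 in the control, 540.6 in conditioned medium, 741.8 in the live coculture and 1131 in the irradiated coculture. Its ratios were 10.1-fold, 13.9-fold and 21.2-fold, so that probe sets of Hif1a differed by 3.13 on the log2 scale for the live coculture. The dimmest read 21.2, 116.0, 34.2 and 122.8, high in conditioned medium and the irradiated coculture and under the floor in the control and the live coculture. All 4 probe sets were at least 2-fold above the control with irradiated cells. For the live coculture and conditioned medium the size of the Hif1a difference depended on the probe set, and the mean over probe sets gave log2 ratios of 1.30 and 1.46. The table gives no probe sequences, so which part of the transcript each set reads was not tested.

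The mitophagy receptors Bnip3 and Bnip3l, paralogues that sit in the outer mitochondrial membrane and recruit the autophagy machinery, had different patterns. Bnip3 had a signal of 244.7 in the control, 737.5 in conditioned medium, 2863 in the live coculture and 3719 in the irradiated coculture. It was 3.01-fold, 11.7-fold and 15.2-fold higher than the control in that order, and its control signal was well above the floor, so these ratios are measured on both sides. The brightest probe set of Bnip3l with Bnip3l-ps read 1659, 1170, 1514 and 1821 in the same order. None of its 3 probe sets was 2-fold apart between any pair of the 4 arrays, and their log2 ratios to the control lay between -0.32 and 0.38 in the live coculture, between -0.02 and 0.34 in the irradiated coculture and between -0.54 and -0.15 in conditioned medium.

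Ero1a, the oxidase of the endoplasmic reticulum that passes electrons from new disulphide bonds to oxygen, was bright and high in both cocultures at all 3 probe sets. The brightest read 581.5 in the control, 872.0 in conditioned medium, 3204 in the live coculture and 4092 in the irradiated coculture. Against the control this was 5.51-fold with live cells, 7.04-fold with irradiated cells and 1.50-fold in conditioned medium. Over the 3 probe sets the live coculture ratios ran from 5.51-fold to 9.79-fold and those of conditioned medium from 1.50-fold to 2.92-fold. Conditioned medium therefore passed 2-fold at 1 probe set of Ero1a only. Its paralogue Ero1b read 418.1, 490.4, 383.7 and 358.6 in the order control, conditioned medium, live and irradiated, with no pair 2-fold apart.

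Ankrd37, a small ankyrin repeat protein whose gene is a direct HIF target, was under the floor in the control at 33.8 and read 129.5 in conditioned medium, 534.5 in the live coculture and 449.4 in the irradiated coculture. The ratios were at least 2.92-fold, 12.1-fold and 10.1-fold. Its signal was 1.19-fold higher in the live than in the irradiated coculture, a difference within the noise yardstick. Its neighbours on the chromosome did not share the pattern. Ufsp2, which overlaps the end of Ankrd37, read 421.1 to 545.0 on the 4 arrays, and Lrp2bp was under the floor on all.

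Ddit4 (also called REDD1), a stress protein that releases the TSC complex to restrain mTOR complex 1, had a signal of 105.5 in the control, 281.4 in conditioned medium, 432.2 in the live coculture and 1063 in the irradiated coculture. It was 2.67-fold, 4.10-fold and 10.1-fold higher than the control. Ddit4 has 1 probe set, so no other set of the gene bears on this. Ndrg1, a cytoplasmic protein induced by hypoxia, cell stress and differentiation, read 194.8, 430.2, 814.9 and 907.5 at its brightest probe set. It was 2.21-fold higher in conditioned medium, 4.18-fold in the live and 4.66-fold in the irradiated coculture. All 5 probe sets of Ndrg1 were at least 2-fold higher in both cocultures, from 2.65-fold to at least 9.80-fold with live cells, and 3 of the 5 were in conditioned medium. The family members Ndrg3 and Ndrg4 were not 2-fold apart from the control on any array at their brightest probe sets. Ndrg2 read 34.1 in the control and 75.2 in conditioned medium, at least 1.70-fold higher, and was under the floor in both cocultures.

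Adm, which encodes the precursor of the vasodilator peptide adrenomedullin and is a HIF target in many cells, did not follow the others. Its brighter probe set read 22.2 in the control, 84.0 in conditioned medium, 45.2 in the live coculture and 38.7 in the irradiated coculture. Conditioned medium had the highest signal, and because the control was under the floor its ratio was at least 1.90-fold, a lower bound just under the threshold. The other probe set read 2.4 to 19.2 and was under the floor on all arrays. With the floor at the 25th percentile (12.9) the log2 ratio of Adm to the control was 1.92 in conditioned medium and 1.03 in the live coculture, both counted as higher, and 0.80 in the irradiated coculture. Against conditioned medium the live coculture was lower by a log2 ratio of -0.89, measured above the floor on both arrays. Adm2, a related peptide gene, was under the floor on every array. The adrenomedullin receptor Calcrl was also dim, with signals of 72.9 to 108.8. Its coreceptor Ramp3 was highest in the control at 249.7, and at 70.0 it was 3.57-fold lower in the live coculture. It was also 1.98-fold lower in the irradiated coculture and 1.99-fold lower in conditioned medium, both just short of the threshold. Ramp1 read 302.0 to 523.6, under 2-fold apart, and Ramp2 was above the floor in the live coculture alone, at 72.7. Ackr3, an atypical receptor that scavenges adrenomedullin and chemokines, differed most in this list of 11 other measured genes. Its signal was 12.6 in the control, 10.3 in conditioned medium, 325.4 with live and 657.8 with irradiated tumour cells, at least 7.35-fold and at least 14.8-fold higher than the control in the last 2. Crcp, a receptor component protein, was 2.59-fold lower with live cells.

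**Figure D3:**
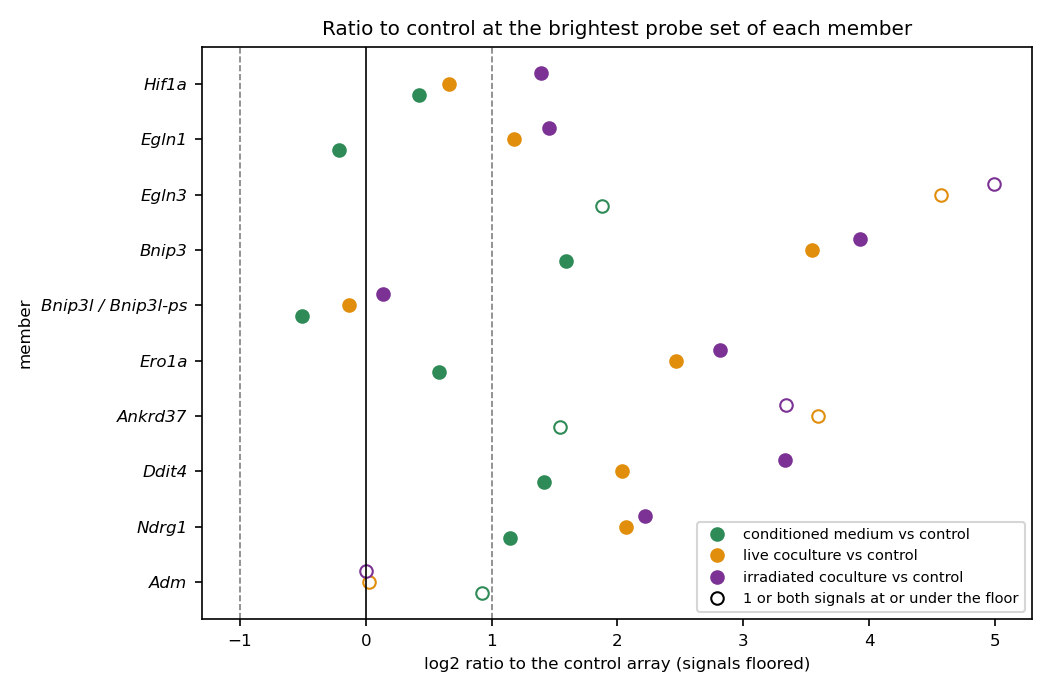
Log2 ratio to the control array (horizontal axis) at the brightest probe set of each gene, with 1 point per treated array; open points have 1 or both signals at or under the floor, and dashed lines mark 2-fold. Both coculture points lie right of the 2-fold line for 7 genes, Egln3 lies farthest right with the floor at 44.3, and the points of Bnip3l with Bnip3l-ps and of Adm stay between the lines.

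The comparison of the irradiated with the live coculture uses no control array. Here 1 of the 9 genes, Ddit4, was at least 2-fold higher with irradiated tumour cells and none was lower. Of all genes 0.302% were higher and 0.368% lower, and of those above the floor 0.461% were higher. Ddit4 was 2.46-fold higher, so it was no longer counted at a 3-fold threshold. At its brightest probe set Hif1a was 1.65-fold higher, and its 4 probe sets ran from 1.52-fold to at least 2.77-fold higher. At their brightest probe sets Egln1, Egln3, Bnip3, Ero1a and Ndrg1 were between 1.11-fold and 1.34-fold higher. Over all probe sets of a gene the log2 ratios ran from 0.07 to 0.28 for Egln1 and from 0.42 to 0.67 for Egln3. They ran from 0.11 to 0.35 for Ero1a and from -0.32 to 0.48 for Ndrg1, so the direction for Ndrg1 depended on the probe set. Adm read 38.7 in the irradiated against 45.2 in the live coculture, the first under the floor. The median log2 ratio of the 9 genes was 0.35, against 0.00 over all genes.

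Between the cocultures and conditioned medium, again without the control, the genes separated by size of difference. In the live coculture 5 of 9 genes were at least 2-fold higher than in conditioned medium, namely Egln1, Egln3, Bnip3, Ero1a and Ankrd37, where 1.76% of all genes and 2.66% of those above the floor were higher and 1.14% of all genes lower. In the irradiated coculture 7 of 9 were, these 5 with Ddit4 and Ndrg1, where 1.95% and 2.97% were higher and 1.24% lower. None of the 9 was lower in either, and both comparisons share the conditioned medium array. The dimmest Hif1a probe set went the other way, at least 2.62-fold lower with live cells than in conditioned medium. Egln3 differed most, at 6.48-fold and 8.68-fold, followed by Ankrd37 at 4.13-fold in the live coculture and Bnip3 at 5.04-fold in the irradiated coculture. Ddit4 was 1.54-fold higher and Ndrg1 1.89-fold higher in the live coculture than in conditioned medium, both short of the threshold. Between conditioned medium and the live coculture Hif1a was 1.18-fold apart at its brightest probe set.

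The order of the 4 arrays was shared by most of the genes. At the brightest probe sets, irradiated coculture above live coculture above conditioned medium above control was the order of 6 of the 9 genes, Hif1a, Egln3, Bnip3, Ero1a, Ddit4 and Ndrg1. The same order was found in 7.28% of the 12425 genes above the floor on at least 1 array. Other probe sets of these genes could differ. Ndrg1 read 434.3 in the live and 346.9 in the irradiated coculture at a dimmer set, and 485.5 and 460.5 at another. The dimmest Hif1a set read 116.0 in conditioned medium and 34.2 in the live coculture. Egln1 had conditioned medium below the control, Ankrd37 had the live coculture on top, and Adm had conditioned medium on top. The control was lowest for 8 of the 9 genes and for 33.5% of the 12425. Within this order the step between the cocultures was under 2-fold for all of the 6 but Ddit4, and neighbouring positions are not separated by any replicate.

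Genes of the same pathways that are not among the 10 were counted in the same way. Of 18 other genes of the HIF machinery, 15 were above the floor in each comparison with the control, and none was 2-fold higher or lower in any of the 3. Of all genes 3.37%, 3.48% and 2.3% were higher with live cells, irradiated cells and conditioned medium. A count of none in 18 lies near these shares. Arnt, the partner subunit, read 222.0 to 276.4, Epas1, the HIF-2 alpha gene, 165.0 to 260.5, Vhl 274.1 to 352.6, and Hif1an, the asparagine hydroxylase of HIF, 127.2 to 203.8. Within the sensor, 2-fold differences from the control were seen for Egln1 and Egln3 in both cocultures and for Hif1a in the irradiated coculture. They depended on the probe set for Hif1a in the live coculture and for Hif1a and Egln3 in conditioned medium.

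Of 34 other measured HIF targets, 12 were higher in the live coculture and 1 lower, with a median log2 ratio of 0.42. With irradiated cells the counts were 13 and 2 and the median 0.52, while the median over all genes was 0.00 in both. Of all genes 3.37% were higher and 2.23% lower with live cells, and 3.48% higher and 2.25% lower with irradiated cells. Hilpda, a lipid droplet protein, read 142.2 in the control, 190.7 in conditioned medium, 2225 in the live coculture and 2404 in the irradiated coculture. Ak4, a mitochondrial adenylate kinase, read 54.1, 97.2, 565.0 and 727.3, and Fam162a, a mitochondrial protein, 365.0, 500.1, 1882 and 2227. P4ha1, a collagen prolyl hydroxylase subunit, read 217.4, 432.1, 1077 and 1121. Cxcr4, a chemokine receptor also counted as a HIF target, went the other way, from 1801 in the control to 597.7 in the live coculture (3.01-fold lower).

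In conditioned medium 1 of these 34 HIF targets was at least 2-fold higher and 2 were lower, with a median log2 ratio of 0.04. Of all genes 2.3% were higher and 1.41% lower in that comparison, so 1 of 34 higher lies near the share over all genes. The higher gene was Narf, at 2.66-fold, and the lower genes were Tfrc, the transferrin receptor, and Plin2, a lipid droplet coat protein. This stands beside the 5 of 9 oxygen-sensing and stress genes that were higher in the same culture. The 34 targets were listed with general results of these arrays known, and the 9 genes were picked for their values, so the difference between the lists was not tested. Hilpda, 15.6-fold and 16.9-fold higher with live and irradiated cells, was 1.34-fold higher in conditioned medium, while Bnip3 was 3.01-fold higher there. P4ha1 was 1.99-fold, Ak4 1.80-fold, the vascular growth factor gene Vegfa 1.78-fold and Fam162a 1.37-fold higher there, all short of the threshold. Cxcr4 was 1.73-fold lower in conditioned medium. Among the 9 genes, Ero1a was 1.50-fold higher and Egln1 1.16-fold lower at their brightest probe sets.

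Of the pathways in which the stress proteins act, mitophagy and oxidative folding each held 1 gene that was 2-fold apart from the control in the live coculture, and mTOR complex 1 control held 3. Of all genes 3.37% were higher and 2.23% lower with live cells. Counts of none or 1 in lists of 17 to 21 genes lie near these shares. Of 21 other measured mitophagy genes, none was higher in any comparison with the control, and 1, Map1lc3a, a membrane-bound autophagy protein, was lower in all 3, at 2.38-fold in the live coculture and 2.01-fold in each of the others. Bnip2 read 778.8 to 857.9. Of 17 other genes of oxidative folding in the endoplasmic reticulum, none was higher, and Erp29, a folding helper, was 2.72-fold lower in the live and 2.50-fold lower in the irradiated coculture. Of 20 other genes of mTOR complex 1 control, 2 were higher and 1 lower with live cells, and 2 were higher and 2 lower with irradiated cells. Sesn2, a stress sensor, was 2.35-fold and 3.18-fold higher in the live and irradiated cocultures and Eif4ebp1, a brake on translation, 2.01-fold and 2.17-fold higher. In the same list Sesn1 was 2.63-fold and 2.30-fold lower, Tsc1 2.09-fold lower in the irradiated coculture, and Txnip 2.73-fold higher in conditioned medium. Ddit4l, the paralogue of Ddit4, stayed between 26.8 and 56.3.

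**Figure D4:**
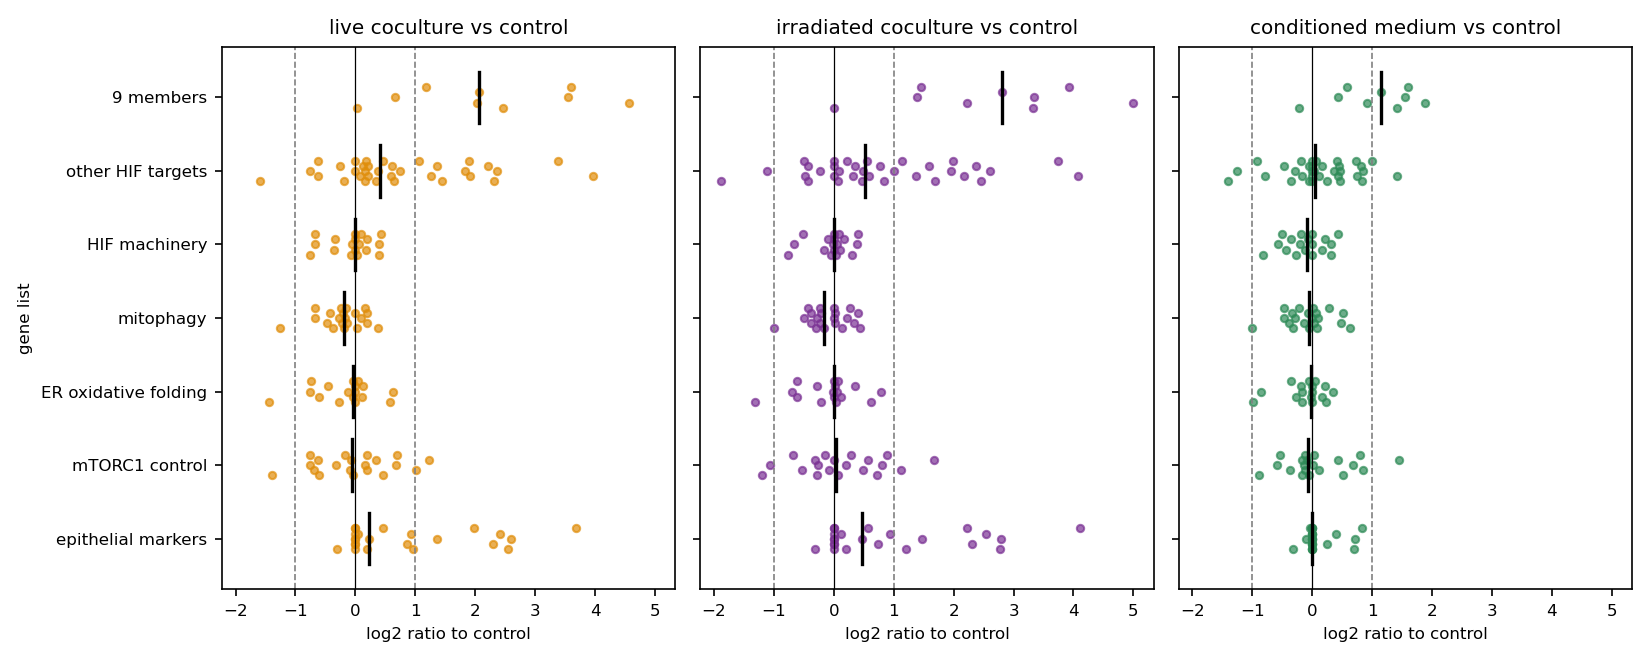
Log2 ratio to the control (horizontal axis) of each gene (points) in 7 gene lists for the 3 treated arrays, with the list median as a black bar and 2-fold as dashed lines; the top row holds the 9 genes with a probe set of their own and the other rows leave them out. The medians of the 9 genes are 2.06, 2.81 and 1.14, those of the machinery, mitophagy, folding and mTOR complex 1 lists lie between -0.19 and 0.04, and the epithelial markers reach beyond 2-fold to the right in the cocultures and up to 0.83 in conditioned medium.

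Profiles were compared by Euclidean distance between log2 signals centred on each gene's mean over the 4 arrays. Clone and model symbols, 1867 of the 18193 genes, were left out. Of the rest, the 6 other genes below had profiles nearest to the median profile of the 9. They were Junos, annotated as a transcript opposite Jun (distance 0.11), Rhou, a small GTPase (0.20), Cyp1b1, a cytochrome P450 (0.20), Cdh1, the epithelial cadherin (0.20), Vegfa, the vascular growth factor and a HIF target (0.22), and Rgs11 (0.29). Of the 9 genes themselves, Ero1a was nearest to their median at 0.44 and Adm farthest at 2.46. Vegfa read 453.6 in the control, 806.6 in conditioned medium, 1706 in the live coculture and 2504 in the irradiated coculture, and Cdh1, which is 1 of the 23 epithelial markers, read 189.5, 338.0, 930.5 and 1102. With 4 points per gene many profiles are alike, and the distances are a description.

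Part of the epithelial and mesothelial markers moved with these genes in the cocultures. Krt7, Krt14, Cldn7, Muc1, Lrrn4, Dsp and Pkp1 were at or under the floor on all arrays, and Epcam read 103.8 in the control and 107.2 with live cells. Krt19, a keratin, read 8.6 in the control, 22.2 in conditioned medium, 569.7 in the live and 767.4 in the irradiated coculture, and Wt1, a mesothelial transcription factor, 5.3, 17.0, 174.3 and 218.6. The part of tumour cell RNA in the coculture values was not tested. In conditioned medium 7 of the 23 epithelial markers were above the floor, as in the control, and Upk3b and Msln were under it on both arrays. Others read higher there than in the control, Cdh1 1.78-fold and Epcam 1.62-fold. Cldn4 read 18.3 in the control and 72.6 in conditioned medium, and Krt18 9.9 and 58.3, so that their ratios of at least 1.64-fold and at least 1.32-fold are lower bounds. Of 20 matrix and mesenchymal markers, 5 were higher with live cells, 6 with irradiated cells and none in conditioned medium, Sparc, Col4a1 and Cald1 among them.

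Markers of blood cell types moved as well. Of all genes 2.23%, 2.25% and 1.41% were lower with live cells, irradiated cells and conditioned medium. Of 17 dendritic cell markers, 4 were lower in the live coculture. They were Ccr7, a homing receptor, at 4.53-fold, Ciita, the regulator of MHC class II genes, at 3.68-fold, and the class II genes H2-Eb1 at 3.15-fold and H2-Ab1 at 2.03-fold. With irradiated cells Ccr7, Ciita and H2-Eb1 were lower, and in conditioned medium Ccr7 alone. Cd86 went the other way with irradiated cells, 2.28-fold higher. Cd80, whose protein was used for the sort, was higher than in the control on all treated arrays, 4.42-fold with live cells, 3.81-fold with irradiated cells and 2.35-fold in conditioned medium. Of 14 neutrophil markers, 7 were lower than in the control with live cells, 6 with irradiated cells and 4 in conditioned medium, while Mmp9, a gelatinase, was at least 6.33-fold and at least 6.51-fold higher in the live and irradiated cocultures. Of 13 mast cell and basophil markers, Cpa3 and Mcpt8 were lower in both cocultures, by 8.73-fold and at least 8.70-fold with live cells, and Kit alone was lower in conditioned medium. Of 6 B cell markers, Blnk, a signalling adaptor, was lower on all treated arrays, 3.07-fold with live cells, and Cd79b in both cocultures. Of 7 T and NK cell markers none was counted, with 1 or 2 above the floor on each array. The part of these markers in the values of the oxygen-sensing and stress genes was not tested.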

How the data were processed

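The authors deposited 1 table of linear MAS5 signal intensity per probe set, made with GCOS 1.4 and MAS5 per the submitters' processing notes. The scaling target and detection calls were not given in the sources used here. The mean intensity after trimming 2% at each end was 150.0 on all 4 arrays, so the values were used as deposited. Mismatch subtraction in MAS5 leaves dim probe sets with unsteady ratios, and a common mean makes each signal relative to its array.

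Of 45101 probe sets, 64 controls were left out. Of the rest, 34945 had 1 gene, 932 several and 9160 none in the array annotation, and 34741 matched RefSeq genes of GRCm38.p6 by Entrez identifier. The probe set of highest mean log2(signal + 1) stood for its gene. The floor, the 2-fold threshold and the 6 comparisons are as given in the report. The rule for named genes was every member, with the members' family and binding partners. It also took up to 4 genes per pathway list with the largest ratios in a coculture. The last part was the 6 genes of nearest profile, with clone and model symbols skipped. Lrp2bp, Ufsp2, Krt19, Wt1, Upk3b, Msln, Narf, P4ha1, Cxcr4, Tfrc, Plin2, Txnip, Actb and further cell type markers were named outside this rule. The genes and the 16 gene lists were chosen with earlier results of these data known.

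The alternatives were floors at the 25th and 75th percentiles, quantile normalization, median centring, the mean over probe sets and a 3-fold threshold. Steps were run in Python 3.11.15 with pandas 2.3.3 and tested on simulated data. Depth does not apply to arrays, and their number limits the precision.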

Additional observations from a re-analysis of the deposited data

How the results depend on the processing

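Over 6 alternatives, 68 of 72 counts of the 9 genes stayed within 1.5 times the value reported. These include the counts of lower genes, reported as 0 in each of the 6 comparisons. For genes picked for high values, a 0 that stays 0 says little. For conditioned medium against the control the number higher was 2 in place of 5 with the floor at the 75th percentile (155.6) and 2 with a 3-fold threshold; the higher floor lies above the conditioned medium signal of Ankrd37 and the control signals of Egln3 and Ddit4, so their ratios shrink by construction. The number higher in the irradiated than in the live coculture was 0 in place of 1 with a 3-fold threshold. The number lower in the irradiated coculture than in conditioned medium was 1 in place of 0 with the floor at the 25th percentile (12.9), and this gene was Adm, which this floor also counted as higher than the control in conditioned medium and the live coculture. Of 270 single-gene log2 ratios, 244 moved by less than the noise yardstick, 26 moved by more and none of those at 2-fold or more turned sign. Quantile normalization and median centring moved none of them by more, although centring lowered the median ratio of genes above the floor from -0.04 to -0.16 for the live coculture, from -0.05 to -0.12 for the irradiated coculture and from 0.00 to -0.11 for conditioned medium. With the mean over probe sets Hif1a passed 2-fold in the live coculture and in conditioned medium, and Ero1a did so in conditioned medium with a log2 ratio of 1.01. No paired analysis was possible because each condition had 1 array.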
